A study of Mus musculus with 30 samples.

Results

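The nuclear-encoded subunits of mitochondrial oxidative phosphorylation were followed in mouse hippocampus across 6 postnatal ages and 2 genotypes. The members were the probe sets (groups of short probes that read 1 transcript) with a single gene symbol that starts with Nduf, Sdh plus a letter from a to d, Uqcr, Cox4 to Cox8 or Atp5. Of 12422 non-control probe sets on the array, 100 met this rule and named 73 genes (of 8251 genes that the array's probe sets with 1 symbol name), and 77 of them, of 66 genes, had a mean intensity of 31 or more over the 30 arrays. The 77 comprised 29 probe sets of complex I, 4 of complex II, 7 of complex III, 14 of complex IV, 19 of complex V and 4 of assembly factors. The assembly factors Ndufaf1, Ndufaf4, Sdhaf1 and Sdhaf2 are caught by the letters of the rule but are not subunits of the finished complexes, so they are given apart. A further 10 probe sets that carry several gene symbols, at least 1 of them of these families, were left out. The dimmest probe set inside the minimum was Atp5g1 161324_r_at at a mean of 33.2, and the brightest outside it was Ndufaf1 161507_f_at at 29.8.

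Oxidative phosphorylation is the last stage of aerobic energy supply. Complex I oxidises NADH and complex II oxidises succinate, both pass electrons through ubiquinone to complex III, cytochrome c carries them to complex IV, and complex V makes ATP from the proton gradient that complexes I, III and IV build. Complex II is also an enzyme of the tricarboxylic acid (TCA) cycle. Most subunits are encoded in the nucleus and a few in mitochondrial DNA. In brain, this pathway pays for most of the ion pumping that electrical activity requires.

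Each array measured total RNA from the pooled hippocampi of 2 male pups born to C57BL/6 mice mated with heterozygotes for Nf1, and the pups of a pool were either all wild type or all Nf1 heterozygous. Nf1 encodes neurofibromin, a negative regulator of Ras, and the sources used here do not describe the disrupted allele. The wild-type groups held 3 pools at P10, 4 at P15 and 2 each at P18, P20, P28 and P32, and the heterozygous groups held 4 at P10, 4 at P15, 2 each at P18, P20 and P28, and 1 at P32. No other allele or agent is named for any group, and pools are called libraries below, numbered by the code in their titles. The litters behind the pools are not stated in the sources used here, so p-values reflect only how much these pools varied.

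The Nf1 probe set, with a mean intensity of 7.02 over the 30 arrays, lay under the minimum. It read 1.43 to 19.1 in the 15 wild-type libraries and 2.15 to 15.04 in the 15 heterozygous ones, so it does not check the genotype labels. All 10 measured marker genes of hippocampal neurons passed the minimum. Libraries of a group correlated at 0.944 or higher over the log2 values of all non-control probe sets, with the lowest value between the 2 heterozygous P18 libraries. Heterozygous P18 replicate 1b also stood apart in the log2 ratio of the 3' to the 5' Gapdh control probe sets, a sign of RNA quality, at 0.48 against -0.33 to 0.17 in the other 29 libraries. Member calls at P18, from P15 to P18 and in the test of genotype by age are therefore also given without it. No fit without it alone is given for the step from P18 to P20 or for the cell type markers at P18.

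Promoters of respiratory genes are known for sites of nuclear respiratory factor 1 (NRF1), of the ETS-family factor GABP and of YY1. A RefSeq promoter (GRCm38.p6, 250 bases before to 50 after the gene's start) was at hand for 53 of the 66 genes. The NRF1 core CGCATGCG, searched on both strands, stood in 9 of the 53 promoters (16.98%) and in 2.07% of all 27025 promoters in that table. The YY1 letters AAGATGGC stood in 7 (13.2%, against 3.19% of all), and the ETS letters CCGGAAGT in 3 (5.66%, against 4.31% of all). These motifs do not overlap in their letters. The windows of 2 genes that rose and 2 that fell with age are shown because the same motif stands in genes that moved in opposite directions. Each runs 5' to 3' on the gene's strand from 150 bases before the start to 30 bases after it, with motif matches in capitals: Uqcr11 (chr10:80406792-80406971, minus strand) holds an ETS match and an NRF1 match, Ndufaf4 (chr4:24897933-24898112, plus strand) an NRF1 match, Atp5j (chr16:84834947-84835126, minus strand) an NRF1 and a YY1 match, and Ndufc1 (chr3:51408926-51409105, minus strand) a YY1 match within the transcribed bases.
Uqcr11: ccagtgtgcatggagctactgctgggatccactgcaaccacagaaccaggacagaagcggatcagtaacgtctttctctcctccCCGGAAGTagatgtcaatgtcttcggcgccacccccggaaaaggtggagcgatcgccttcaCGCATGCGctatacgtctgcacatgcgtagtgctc
Ndufaf4: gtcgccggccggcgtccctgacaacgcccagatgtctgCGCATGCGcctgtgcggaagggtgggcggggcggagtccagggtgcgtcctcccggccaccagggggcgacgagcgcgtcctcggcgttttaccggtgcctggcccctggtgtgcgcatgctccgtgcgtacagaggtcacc
Atp5j: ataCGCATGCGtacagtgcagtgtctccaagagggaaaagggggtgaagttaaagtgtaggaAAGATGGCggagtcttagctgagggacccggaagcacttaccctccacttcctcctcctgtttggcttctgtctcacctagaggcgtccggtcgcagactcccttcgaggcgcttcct
Ndufc1: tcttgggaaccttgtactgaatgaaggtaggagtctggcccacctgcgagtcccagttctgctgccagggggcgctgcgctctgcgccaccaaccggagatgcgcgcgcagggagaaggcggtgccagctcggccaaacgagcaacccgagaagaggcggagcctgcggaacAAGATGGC
From P10 to P28 and P32, Uqcr11 and Ndufc1 fell and Ndufaf4 and Atp5j rose, with the values given below. Counting each gene by its probe set with the largest change, 12 of the 53 genes with a promoter were called as rising and 20 as falling. The counts per motif are small and were not tested against these shares. Of the 9 genes with the NRF1 core, 2 rose (Atp5j, Ndufaf4), 2 fell (Atp5l, Uqcr11) and 5 were not called. Of the 7 with the YY1 letters, 1 rose (Atp5j), 3 fell (Atp5pb, Ndufa3, Ndufc1) and 3 were not called. Of the 3 with the ETS letters, Ndufs3 rose, Uqcr11 fell and Uqcrh was not called. A match is a description of these letters in this window.

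The members were bright. The median of their mean intensities was 786, against 140.8 over all 7591 probe sets tested, and 60 of the 77 lay above that median. Complex II and complex III had no probe set with a mean under 100, whereas 35.7% of the complex IV probe sets and 26.3% of those of complex V did. The brightest and the dimmest probe set of each complex were Ndufb5 (2735) and Ndufs4 (52.1) for complex I, Sdhb (1177) and Sdha (296) for complex II, Uqcrq (2426) and Uqcrb (647) for complex III, Cox6a1 (4164) and Cox6b2 160813_r_at (39.3) for complex IV, and Atp5md (3292) and Atp5g1 161324_r_at (33.2) for complex V. Intensities of different probe sets depend on their probes and were not set against each other as amounts of RNA.

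The first comparison set the 7 libraries of P28 and P32 against the 7 of P10, over both genotypes, and is called maturation here. Subunits did not move as a block. The called members of complex III all fell, those of complex II all rose, and those of complexes I, IV and V went both ways. By limma on log2 intensity, 43 of the 77 members (55.8%) passed an adjusted p of 0.05, 16 higher and 27 lower at the later ages. This share was near the background, since 53.6% of all probe sets tested were called, 24.5% as higher and 29.1% as lower. The members' median log2 change was -0.09, against -0.06 over all probe sets tested. The libraries of the 2 age groups did not overlap for 26 members (9 higher, 17 lower), and 26.6% of all probe sets tested showed such separation.

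**Figure D1:**
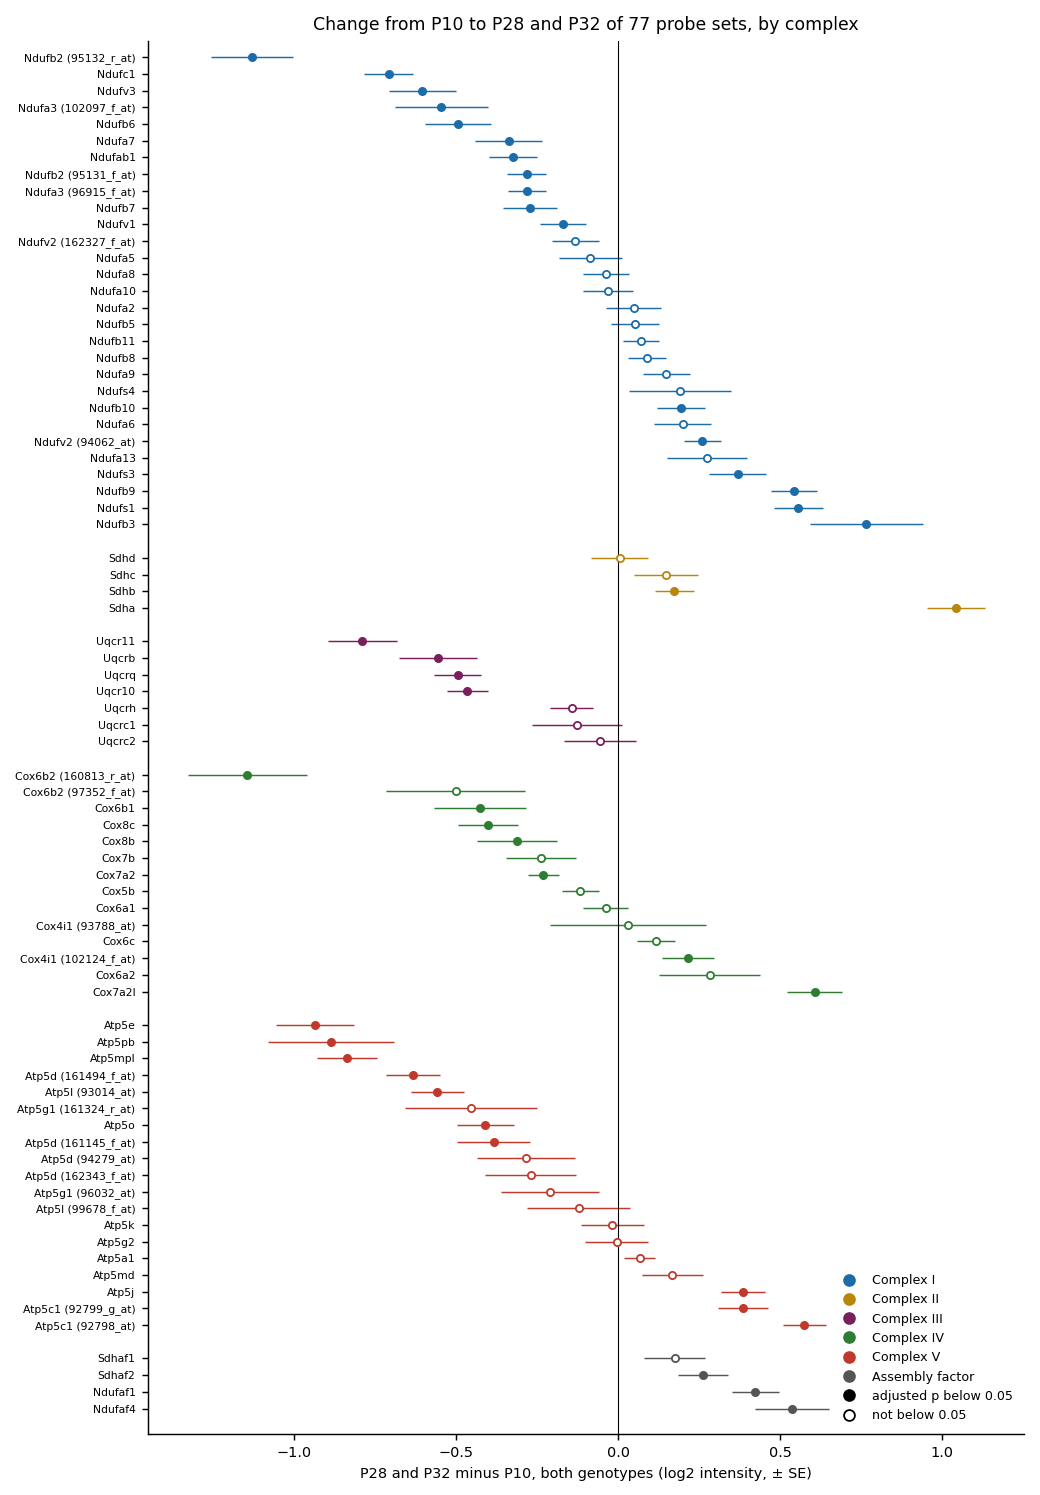
Log2 change (± SE) from P10 to P28 and P32 over both genotypes for each of the 77 probe sets, grouped by complex, with filled points for an adjusted p below 0.05 (limma). All 7 complex III points lie left of 0, all 4 complex II points lie at or right of 0, and complexes I, IV and V spread to both sides.

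The complexes differed in their called members. In complex III, 4 of 7 probe sets fell, none rose, and the median log2 change was -0.47. In complex II, 2 of 4 rose, none fell, and the median was 0.16. The mean log2 intensity over the complex III probe sets was 10.42 to 10.52 in the P10 libraries and 9.90 to 10.22 in those of P28 and P32. For complex II it was 9.26 to 9.43 at P10 and 9.59 to 9.81 at P28 and P32, so neither complex's ranges overlapped. The mean over the assembly factors also separated the ages, at 6.93 to 7.15 at P10 and 7.23 to 7.72 at P28 and P32. The mean over all members did so too, with a fall from 8.96 to 9.04 at P10 to 8.84 to 8.92 later. The ranges of complexes I, IV and V overlapped between the ages. Such separation was therefore not particular to complexes II and III. Most of the complex II shift came from Sdha, while Sdhc and Sdhd were not called (values below). The medians of complexes I, IV and V were -0.03, -0.17 and -0.27. In complex I, 6 of 29 rose and 11 fell, in complex IV 2 of 14 rose and 5 fell, and in complex V 3 of 19 rose and 7 fell. Of the 4 assembly factors 3 rose and none fell, with a median of 0.34. No difference between complexes was tested, and each rests on few genes.

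**Figure D2:**
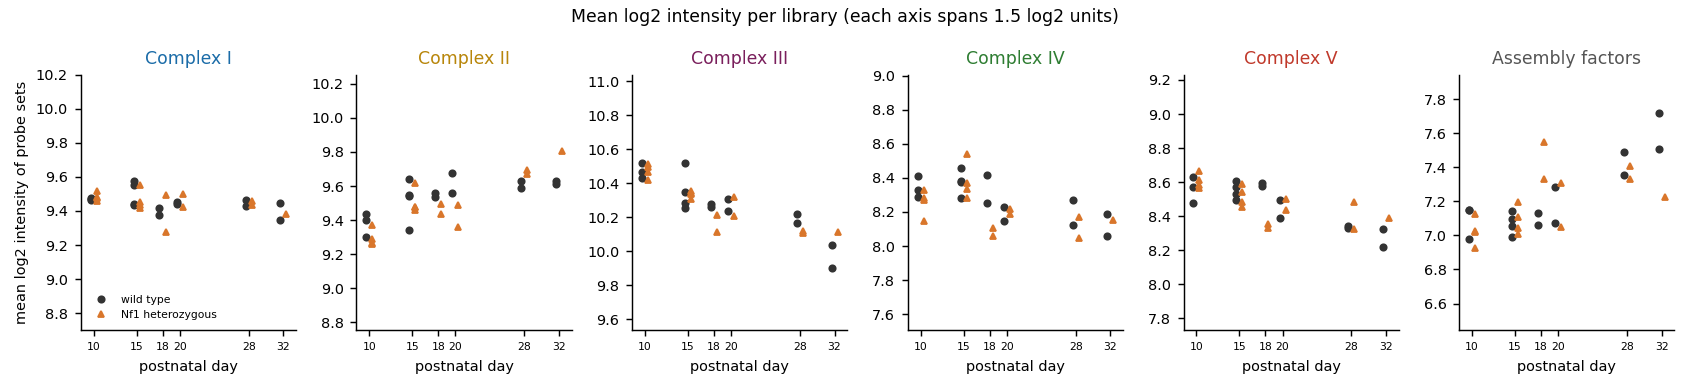
Mean log2 intensity over the probe sets of each complex in every library, against postnatal day, with circles for wild type and triangles for Nf1 heterozygotes (each vertical axis spans the same log2 range). Complex III lies at 10.42 to 10.52 at P10 and at 9.90 to 10.22 at P28 and P32, complex II at 9.26 to 9.43 and then at 9.59 to 9.81, and complex I between 9.27 and 9.57 at all ages. Most of the complex II shift came from Sdha.

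Complex I takes electrons from NADH through a peripheral arm of core subunits that carry flavin and iron-sulphur clusters, held by many accessory subunits. Of the 5 probe sets of core subunits, 3 rose and 1 fell, whereas of the 24 of accessory subunits 3 rose and 10 fell. Ndufs1 (chr1:63143592-63176822), the largest core subunit, read 433 to 536 at P10 with a median of 464, and 653 to 739 at P28 and P32 with a median of 683. Every later library lay above every P10 library, and the change was 0.56 log2 (SE 0.08, adjusted p = 1.48e-06). Ndufs3, a core subunit that carries no cluster, went from 798 to 1068 (median 862) to 1053 to 1304 (median 1206), a change of 0.37 (SE 0.09, adjusted p = 0.00111) with ranges that overlapped at their edges. Ndufv2, a core subunit with an iron-sulphur cluster, rose by 0.26 on the log2 scale on probe set 94062_at (SE 0.06, adjusted p = 0.000569). Its second probe set, 162327_f_at, gave -0.13 (adjusted p = 0.127), the only gene with several selected probe sets whose values differed in sign. Ndufv1, the subunit that binds NADH and flavin, was the core subunit that fell, with a change of -0.17 (SE 0.07, adjusted p = 0.045).

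Among the accessory subunits, the largest changes went in both directions. Ndufb3 (chr1:58586397-58595964), an accessory subunit of the membrane arm, read 420 to 792 at P10 (median 615) and 637 to 1304 later (median 1019). These ranges overlapped, and the change was 0.77 (SE 0.17, adjusted p = 0.00073), or 1.70-fold. Ndufb9 (chr15:58933801-58939516), of the same arm, read 924 to 1060 at P10 (median 988) and 1210 to 1725 later (median 1449), without overlap, a change of 0.54 (SE 0.07, adjusted p = 9.54e-07). Ndufc1 (chr3:51405479-51408955), a small membrane-arm subunit whose promoter window is printed above, moved the other way. It read 1022 to 1258 at P10 (median 1105) and 620 to 785 later (median 664), without overlap, a change of -0.71 (SE 0.08, adjusted p = 3.79e-08). Ndufv3, an accessory subunit of the NADH-binding part, went from 490 to 612 (median 524) to 277 to 403 (median 372), a change of -0.61 (SE 0.10, adjusted p = 3.1e-05), also without overlap. Ndufb6 fell by -0.50 and Ndufab1, the acyl carrier protein, by -0.33.

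Ndufb2 (chr6:39592565-39599843), a membrane-arm subunit, fell on both of its probe sets but by different amounts. Probe set 95132_r_at read 1731 to 2479 at P10 (median 2295) and 609 to 1367 later (median 949), a change of -1.13 (SE 0.13, adjusted p = 9.56e-08). Probe set 95131_f_at went from 2308 to 2770 (median 2408) to 1789 to 2118 (median 2076), a change of -0.28 (SE 0.06, adjusted p = 0.000337). Neither pair of ranges overlapped, so the direction was shared and the size was not. Ndufa3 likewise gave -0.55 on 102097_f_at and -0.28 on 96915_f_at. The first of these values rested on the only heterozygous P32 library, which read 12.9 where the other 6 libraries of those ages read 57.4 to 79.7, and without it the change was 0.034 (adjusted p = 0.866). The remaining 12 complex I probe sets were not called, among them Ndufb5 (0.05, adjusted p = 0.58) and Ndufa8 (-0.04, adjusted p = 0.681).

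Complex II consists of the flavoprotein Sdha, the iron-sulphur protein Sdhb and the membrane anchors Sdhc and Sdhd. Sdha (chr13:74322255-74350240) had the largest rise of all members. It read 174 to 208 at P10 with a median of 201, and 340 to 437 at P28 and P32 with a median of 395. Every later library was above every P10 library, and the change was 1.04 log2 (SE 0.09, adjusted p = 1.25e-09), or 2.06-fold. Mean intensities in both genotypes together went from 196 ± 12.9 (SD, n = 7) at P10 through 264 ± 35.6 (SD, n = 8) at P15, 314 ± 44.7 (SD, n = 4) at P18 and 332 ± 23.9 (SD, n = 4) at P20 to 390 ± 40.1 (SD, n = 4) at P28 and 413 ± 20.1 (SD, n = 3) at P32. Sdhb rose by 0.17 on the log2 scale (SE 0.06, adjusted p = 0.0187), and its libraries spanned 1020 to 1166 at P10 and 1112 to 1333 later, with overlap. The anchors were not called, with 0.15 for Sdhc (adjusted p = 0.209) and 0.00 for Sdhd (adjusted p = 0.97), whose P10 and later libraries spanned 798 to 1181 and 800 to 1069.

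Complex III passes electrons from ubiquinol to cytochrome c. Its core proteins Uqcrc1 and Uqcrc2 were not called, with -0.13 (adjusted p = 0.455) and -0.06 (adjusted p = 0.694). Of the 5 probe sets of its small subunits, 4 fell, and the exception was the hinge protein Uqcrh with -0.14 (adjusted p = 0.0729). Uqcr11 (chr10:80402997-80406821), the smallest subunit of the complex, read 1168 to 1423 at P10 (median 1237) and 545 to 886 later (median 710). All later libraries lay below all P10 libraries, and the change was -0.79 (SE 0.11, adjusted p = 1.49e-06), 1.73-fold lower. Uqcrb (chr13:66900576-66905350), a ubiquinone-binding subunit, went from 833 to 999 (median 880) to 532 to 770 (median 599), a change of -0.56 (SE 0.12, adjusted p = 0.000453). Uqcrq went from 2470 to 2782 (median 2578) to 1447 to 1989 (median 1928), and Uqcr10 from 1644 to 1894 (median 1748) to 1211 to 1323 (median 1277). Neither Uqcrq (-0.50, adjusted p = 4.15e-06) nor Uqcr10 (-0.47, adjusted p = 1.41e-06) had overlapping libraries.

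Complex IV reduces oxygen, and several of its subunits exist as isoforms that differ between tissues. The largest rise was that of Cox7a2l (chr17:83501917-83514333), a Cox7a relative known for its part in joining complexes into supercomplexes. It read 490 to 596 at P10 (median 517) and 751 to 869 later (median 804), without overlap, a change of 0.61 (SE 0.09, adjusted p = 2.57e-06). Its relative Cox7a2, the form found in most tissues, went the other way, from 2195 to 2579 (median 2425) to 1935 to 2107 (median 2060), a change of -0.23 (SE 0.05, adjusted p = 0.000277). The heart and muscle form Cox7a1 lay under the minimum, at a mean of 11.6. For subunit 6a, the widely expressed Cox6a1 gave -0.04 (adjusted p = 0.658) at 3653 to 4375 in the libraries compared, and the muscle form Cox6a2, at a mean of 128, gave 0.28 (adjusted p = 0.128).

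For subunit 6b, the dim testis form Cox6b2 read 46.7 to 64.9 at P10 and 14.3 to 34.9 later on 160813_r_at, a change of -1.15 (SE 0.18, adjusted p = 1.3e-05), the largest fall of all members. Its second selected probe set gave -0.50 (adjusted p = 0.0518) and the common form Cox6b1, also dim at a mean of 70.8, gave -0.43 (adjusted p = 0.0144). For subunit 8, the common form Cox8a lay under the minimum at a mean of 10.3, and Cox8b and Cox8c, at means of 64.8 and 246, gave -0.31 (adjusted p = 0.0357) and -0.40 (adjusted p = 0.000862). Cox4i1, subunit 4, rose by 0.22 on 102124_f_at (adjusted p = 0.0271) and gave 0.03 on the dim 93788_at (adjusted p = 0.924). No probe set is named for Cox4i2 in the annotation used here. Cox5b (-0.12, adjusted p = 0.0937), Cox6c (0.12, adjusted p = 0.0931) and Cox7b (-0.24, adjusted p = 0.0646) were not called.

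Complex V, the ATP synthase, joins a catalytic head and a rotating central stalk to a membrane ring, with a peripheral stalk beside them. Within the central stalk, subunits moved in opposite directions. Atp5c1 (chr2:10056030-10080510), the gamma subunit, read 759 to 967 at P10 (median 842) and 1159 to 1386 later (median 1279) on 92798_at, a change of 0.58 (SE 0.07, adjusted p = 1.71e-07). Its second probe set gave 0.39 (adjusted p = 0.000179), and both separated the ages without overlap. Atp5e (chr2:174461075-174464101), the epsilon subunit, read 675 to 971 at P10 (median 719) and 299 to 577 later (median 428), a change of -0.94 (SE 0.12, adjusted p = 6.96e-07), 1.91-fold lower. Atp5d, the delta subunit, had 4 probe sets, all with a negative change between -0.63 and -0.27, and 2 of them were called (161494_f_at and 161145_f_at). Atp5a1, the alpha subunit of the catalytic head, gave 0.07 (SE 0.05, adjusted p = 0.248).

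In the peripheral stalk, Atp5j (coupling factor 6) rose from 635 to 731 (median 684) to 786 to 971 (median 915), by 0.39 on the log2 scale (SE 0.07, adjusted p = 5.11e-05). Atp5pb (subunit b) read 42.1 to 121 at P10 and 22.8 to 62.6 later, a change of -0.89 (SE 0.19, adjusted p = 0.000489), and Atp5o (the oligomycin sensitivity protein) changed by -0.41 (SE 0.09, adjusted p = 0.000393). Of the membrane subunits, Atp5mpl (chr12:111961374-111967009), a small protein bound to the ATP synthase, went from 1984 to 2469 (median 2390) to 1032 to 1439 (median 1276), a change of -0.84 (SE 0.09, adjusted p = 6.3e-08), without overlap. Atp5l, subunit g, went from 2473 to 2808 (median 2586) to 1458 to 2018 (median 1779) on 93014_at, a change of -0.56 (SE 0.08, adjusted p = 3.92e-06), and gave -0.12 (adjusted p = 0.534) on the dim 99678_f_at. The genes of the proton ring subunit c were not called, with -0.21 and -0.45 on the probe sets of Atp5g1 and -0.01 for Atp5g2, and no probe set is named for Atp5g3 in the annotation used here.

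Among the assembly factors, Ndufaf1 and Ndufaf4, both needed to build complex I, and Sdhaf2, which helps attach flavin to Sdha, rose. Ndufaf1 read 136 to 162 at P10 (median 155) and 195 to 211 later (median 200), a change of 0.42 (SE 0.07, adjusted p = 3.19e-05). Ndufaf4 (chr4:24898083-24905001) went from 65.7 to 89.5 (median 73.1) to 81.6 to 174 (median 110), with overlap, a change of 0.54 (SE 0.11, adjusted p = 0.000367). Sdhaf2 gave 0.26 (adjusted p = 0.00616) and Sdhaf1 0.17 (adjusted p = 0.123).

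The time at which members moved differed between them. From P10 to P15, 17 of the 77 were called, 11 higher and 6 lower, where 25.6% of all probe sets tested were called, 12.4% higher and 13.3% lower. The largest changes in this step were those of Cox6a2 (0.80, SE 0.15, adjusted p = 0.000281), Uqcrb (-0.77, SE 0.11, adjusted p = 2.22e-05), Sdha (0.42, SE 0.08, adjusted p = 0.000647) and Atp5mpl (-0.37, SE 0.09, adjusted p = 0.00281). With the title code as a replicate block far fewer members were called in this step, as counted in the last section. Atp5mpl then gave 0.0044 and Atp5o 0.046, and neither was called. Uqcrb had a mean of 897 ± 63.7 (SD, n = 7) at P10, 539 ± 105 (SD, n = 8) at P15 and 555 ± 37.6 (SD, n = 3) at P32. At P18 it read 397 and 326 in wild type and 473 and 894 in heterozygotes. Its fall was thus present by P15, and the fall over the whole span, given above, was smaller than that in this step. Cox6a2 had 96.5 ± 20.4 (SD, n = 7) at P10, 173 ± 50.8 (SD, n = 8) at P15 and 113 ± 23.9 (SD, n = 4) at P18, and it was not called over the whole span. Atp5j reached 887 ± 68.4 (SD, n = 8) at P15 from 686 ± 35.3 (SD, n = 7), and read 869 ± 72.2 (SD, n = 3) at P32. From P15 to P18, 4 members were called, where 3.73% of all were. They were Ndufaf4 (0.53), Atp5mpl (-0.47), Atp5d 161494_f_at (-0.39) and Ndufb2 95131_f_at (-0.27). Of these, only Ndufb2 95131_f_at stayed called without heterozygous P18 replicate 1b (-0.34), in a fit that leaves 1 library in that group. Ndufa13, outside these 4, was called there as well (0.44). The count fell to 2 without heterozygous P18 replicate 1b, to 1 and 0 without the wild-type P18 replicates 1c and 1d, and to 2 without heterozygous P15 replicate 1d, and it rose to 22 without heterozygous P18 replicate 1a.

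From P18 to P20 no member was called (limma, 4 at an unadjusted p below 0.05), where 0.0132% of all probe sets were, and without heterozygous P18 replicate 1a the count was 7. From P20 to P28, 8 were called, 3 higher and 5 lower, where 7.93% of all were. Uqcr11 led this step. Its mean was 1277 ± 112 (SD, n = 7) at P10, 1360 ± 104 (SD, n = 8) at P15, 1296 ± 372 (SD, n = 4) at P18 and 1388 ± 177 (SD, n = 4) at P20, and then 813 ± 76.7 (SD, n = 4) at P28 and 654 ± 94.5 (SD, n = 3) at P32. The libraries before P28 and those from P28 on were apart except for a low P18 library, and the change in the step was -0.77 (SE 0.14, adjusted p = 0.00195). The others were Atp5l (-0.42), Uqcrq (-0.36), Ndufab1 (-0.36), Cox7a2 (-0.22), Cox7a2l (0.40), Ndufaf1 (0.32) and Ndufb2 95131_f_at (0.27). For Ndufb2 the other probe set, 95132_r_at, gave -0.52 (SE 0.16, adjusted p = 0.0503), so the direction of this gene in the step differed between its probe sets. The log2 Gapdh ratio was -0.33 and -0.30 in the wild-type P20 libraries and 0.003 and 0.17 in the heterozygous ones, against 0.05 and 0.15 in wild type and 0.03 and -0.14 in heterozygotes at P28. With that ratio as a covariate 2 members were called in the step, 1 higher and 1 lower. The wild-type P20 libraries both carry the title number 2 and the P28 libraries the number 1, and the count was 4 with that number as a block. Only Uqcr11 remained called when heterozygous P20 replicate 1b, heterozygous P28 replicate 1a or wild-type P20 replicate 2a was left out, and 2 members were called without wild-type P20 replicate 2b or wild-type P28 replicate 1b, and 4 without wild-type P28 replicate 1a. From P28 to P32 only Ndufa3 102097_f_at was called (-1.33, against -0.04 on 96915_f_at), where 0.0132% of all were, and the call was lost when the heterozygous P32 library was left out (-0.33, adjusted p = 0.898), and likewise for heterozygous P28 replicate 1b, wild-type P28 replicate 1b or wild-type P32 replicate 1a.

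**Figure D3:**
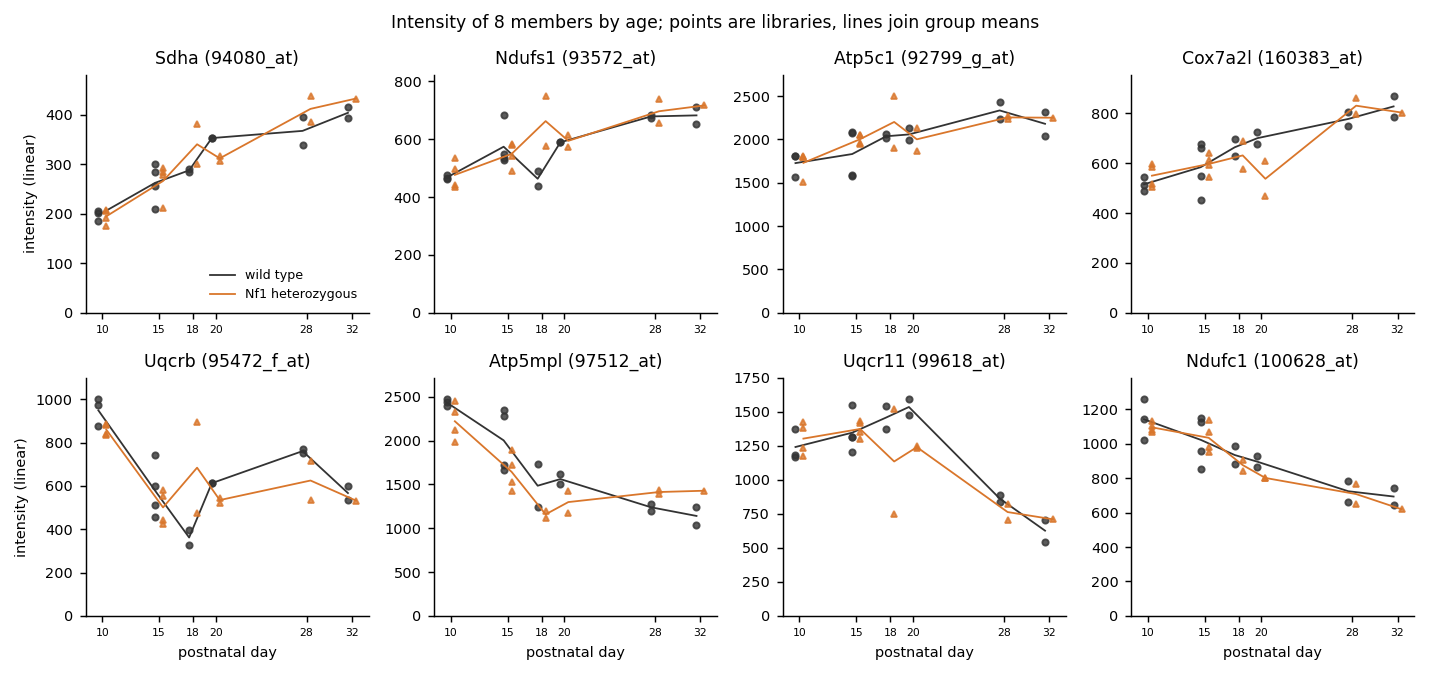
Intensity (linear scale from 0) of 8 members in every library against postnatal day, with circles for wild type, triangles for Nf1 heterozygotes and lines through the group means. Sdha lies at 174 to 208 at P10 and at 340 to 437 at P28 and P32, Uqcrb at 833 to 999 and then at 532 to 770, Uqcr11 at 1168 to 1423 and then at 545 to 886, and Ndufc1 at 1022 to 1258 and then at 620 to 785.

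The maturation changes were then compared between genotypes, the question the heterozygous arm of the design addresses. In wild type, 35 members were called (12 higher, 23 lower), where 37.8% of all probe sets tested were, and in heterozygotes also 35 (12 higher, 23 lower), where 36.3% of all were. Of these, 27 were called in both genotypes, all with the same sign, and 8 were called in each genotype alone. No such count was made over all probe sets tested, so this overlap is not read as particular to the members. Sdha changed by 0.97 (SE 0.12) in wild type and by 1.12 (SE 0.13) in heterozygotes. Uqcr11 changed by -0.76 (SE 0.15) and -0.82 (SE 0.15), Ndufc1 by -0.69 (SE 0.10) and -0.73 (SE 0.11), and Atp5e by -1.06 (SE 0.17) and -0.81 (SE 0.17). Ndufb3 was called in heterozygotes (1.13, SE 0.25) and not in wild type (0.40, SE 0.24). Tested directly, the difference in maturation between genotypes was called for no member (limma, 9 at an unadjusted p below 0.05) and for 0% of all probe sets. The smallest p belonged to Ndufa3 102097_f_at, with -1.62 (SE 0.29, adjusted p = 0.0604), which includes the low heterozygous P32 library, while 96915_f_at gave -0.03 (adjusted p = 0.987). The former was the single member called in those alternatives that called any, the array weights, the Gapdh covariate, the analysis without both heterozygous P18 libraries, and the leaving out of wild-type P10 replicate 1b, wild-type P15 replicate 1a, heterozygous P15 replicates 1d and 2c, or heterozygous P18 replicates 1a and 1b in turn.

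Between genotypes at a given age, few members differed outside P18. Over all ages no member was called (limma, 2 at an unadjusted p below 0.05), where 0% of all were. The smallest p-values belonged to Ndufa8 (-0.13, adjusted p = 0.442), Sdhaf1 (-0.13, adjusted p = 0.526) and Ndufab1 (0.13, adjusted p = 0.55). At P10 none was called (4 at an unadjusted p below 0.05), where 0.0395% of all were, and the smallest p-values were those of Ndufab1 (0.40), Atp5pb (0.84) and Ndufb3 (-0.56). At P15 none was called (2 at an unadjusted p below 0.05), where 0% of all were, with Ndufa3 102097_f_at (-0.74), Atp5mpl (-0.28) and Atp5pb (-0.48) foremost. Atp5pb thus had a positive difference at P10 and a negative one at P15, neither of them past the threshold. At P28 none was called (2 at an unadjusted p below 0.05), where 0.0132% of all were, with Cox6b1 (-0.92), Atp5pb (0.75) and Atp5e (0.43) foremost. At P32 Ndufa3 102097_f_at was called (-2.21, SE 0.32, adjusted p = 0.00277), where 0.0132% of all were, on the single heterozygous library at 12.9 against 58.6 and 60.4 in wild type. A single library has no spread of its own, so its SE and p assume that it varied like the libraries of the other groups. The other Ndufa3 probe set, 96915_f_at, read 1518 in that library against 1497 and 1351 in wild type, a difference of 0.09 (SE 0.13, adjusted p = 0.967).

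At P20, no member was called (limma, 11 at an unadjusted p below 0.05), where 2.23% of all probe sets were. The smallest p-values were those of Atp5c1 92798_at (-0.41, SE 0.12, adjusted p = 0.0725), Ndufaf1 (-0.42, adjusted p = 0.0896) and Ndufa3 102097_f_at (0.71, adjusted p = 0.16). The second probe set of Atp5c1, 92799_g_at, gave -0.04 (SE 0.14, adjusted p = 0.928). Atp5c1 92798_at was called when array weights were used, and when either or both heterozygous P18 libraries or wild-type P15 replicate 2c were left out, with the same difference. Genotype and title number cannot be told apart at P20, since the wild-type libraries carry 2 and the heterozygous ones 1. The log2 Gapdh ratio also separated these groups, at -0.33 and -0.30 in wild type, the lowest of all 30 libraries, against 0.003 and 0.17, and its part in the P20 differences was not tested beyond the covariate, with which no member was called.

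At P18, 24 of the 77 members were called, 10 higher and 14 lower in heterozygotes, where 22.4% of all probe sets tested were. Among the called members, the largest differences were those of Atp5g1 161324_r_at (-1.04, SE 0.37, adjusted p = 0.0459), Cox6b2 160813_r_at (-1.03, SE 0.33, adjusted p = 0.0294), Atp5e (-0.96, SE 0.22, adjusted p = 0.00463), Ndufaf4 (0.91, SE 0.21, adjusted p = 0.00449) and Uqcrb (0.85, SE 0.22, adjusted p = 0.0087). Atp5g1 161324_r_at, the dimmest member, read 69.9 and 32.8 in wild type against 19.9 and 27.3. The second Atp5g1 probe set, 96032_at, gave -0.23 (adjusted p = 0.578), and that of Cox6b2, 97352_f_at, gave -0.97 (adjusted p = 0.0725). Atp5e read 808 and 814 in wild type, 514 in heterozygous replicate 1a and 340 in replicate 1b. Uqcrb read 397 and 326 in wild type, 473 in replicate 1a and 894 in replicate 1b. Ndufaf4 read 74.8 and 69.1 in wild type against 120 and 151. For Atp5e, Uqcrb and Ndufaf4, both heterozygous libraries lay on the same side of wild type, with replicate 1b farther out. Ndufv2 94062_at read 895 and 908 in wild type and 1355 and 1445 in heterozygotes, a difference of 0.63 (SE 0.10, adjusted p = 0.000464), with the heterozygous libraries close to each other.

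Over the 24 called members, the median distance from the wild-type mean was 0.37 log2 for replicate 1a and 0.78 for replicate 1b, and over all probe sets tested it was 0.27 and 0.47. Replicate 1b was the farther of the pair for 20 of the 24, for 55 of all 77 members and for 5301 of all 7591 probe sets tested. Without replicate 1b, 3 members were called, Ndufv2 94062_at (0.59, adjusted p = 0.0159), Ndufb2 95131_f_at (-0.52, adjusted p = 0.019) and Ndufa13 (0.90, adjusted p = 0.00819), and without replicate 1a 32 were. Each of these counts rests on 1 heterozygous library, which is assumed to vary like the other groups. The share of all probe sets called in the same fits is not given here, so the counts are not read as particular to the members. Ndufa13, an accessory subunit, read 473 and 572 in wild type, 969 in replicate 1a and 406 in replicate 1b. The heterozygous libraries thus lay on opposite sides of wild type, and with both the difference was 0.27 (SE 0.22, adjusted p = 0.408). Without wild-type replicates 1c or 1d in turn, 10 and 6 were called. With the Gapdh ratio as a covariate 2 were called, Ndufv2 94062_at and Ndufa13, and with array weights 1, Ndufv2 94062_at. The part of RNA quality in the P18 difference was not tested beyond these values. Some cell type markers also differed between the genotypes at P18, where 22.4% of all probe sets tested were called. Of 7 microglial markers 4 were lower in heterozygotes and none higher (median -0.57), with summed intensities of 2545 to 2549 in wild type and 1886 to 2242 in heterozygotes. Of 3 red blood cell markers 2 were lower and none higher (median -0.85), with sums of 3635 to 4489 and 1740 to 2952. The sums of both lists did not overlap between genotypes and were lowest in replicate 1b. With 2 libraries per genotype, such separation alone says little. Sums of the astrocyte and hippocampal neuron markers, given next, did not overlap either. The same held for choroid plexus markers, at 1650 to 2280 in wild type and 1126 to 1565 in heterozygotes. Of 8 astrocyte markers 2 were higher and 1 lower (median 0.24), with sums of 6209 to 6639 in wild type and 7060 to 9135 in heterozygotes. Of 10 hippocampal neuron markers 2 were higher and none lower, with sums of 6687 to 7078 and 7977 to 8985. The median difference of these neuron markers was -0.04, so their higher sums did not reflect a rise of the typical marker. Of the others, 1 of 8 immature neuron markers was higher and 1 lower, 2 of 8 endothelial and mural markers were higher and 1 lower, 1 of 3 choroid plexus markers was lower, and none of 7 oligodendrocyte markers was called. No tested marker was at 0, and the part of these cell types in the members' P18 differences was not tested.

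**Figure D4:**
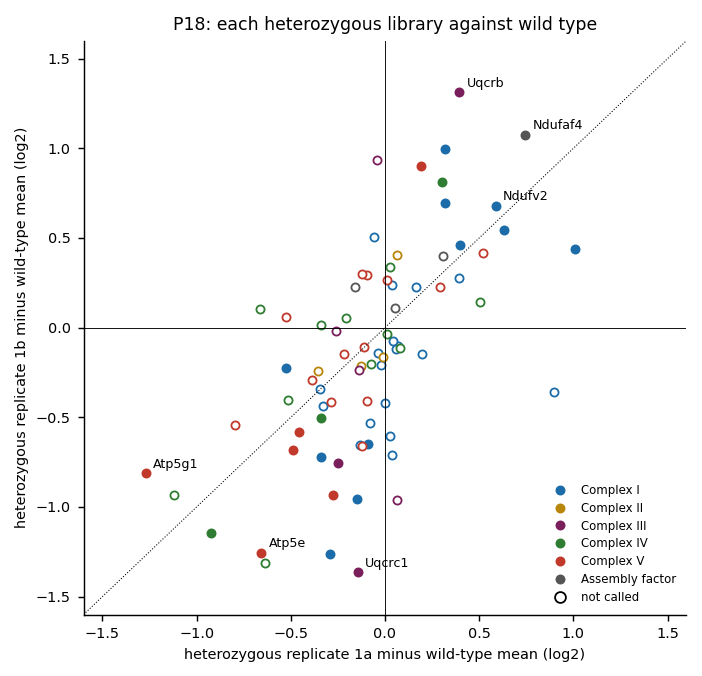
Log2 difference of each heterozygous P18 library from the wild-type P18 mean for the 77 members, replicate 1a on the horizontal and replicate 1b on the vertical axis, with filled points for members called at P18 and a dotted line of equality. The 24 filled points share their sign in both libraries, which a call on the mean of these libraries favours, and 20 lie farther from 0 in replicate 1b. Of all 77 members, 57 share their sign and 55 lie farther in replicate 1b. Of all 7591 probe sets tested, 5394 share their sign and 5301 lie farther in replicate 1b.

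The genotype difference varied with age (the interaction over all 6 ages) for 4 members, Ndufa3 102097_f_at (adjusted p = 0.00112), Ndufv2 94062_at (adjusted p = 0.00822), Ndufaf4 (adjusted p = 0.0146) and Atp5e (adjusted p = 0.0437), where 6.18% of all probe sets were called. Without replicate 1b of the heterozygous P18 group 3 of them were called, Ndufa3, Ndufv2 and Ndufaf4, and without both heterozygous P18 libraries only Ndufa3. The count was 25 without heterozygous P18 replicate 1a, 2 without wild-type P18 replicate 1d and 7 without wild-type P32 replicate 1b.

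Other mitochondrial genes were read from lists that are not part of the family. Over all probe sets tested, 53.6% were called in maturation, 24.5% as higher and 29.1% as lower. Of 15 tested genes of the TCA cycle and pyruvate dehydrogenase, 6 rose in maturation and none fell, with a median of 0.10. They were Suclg1 (0.93, SE 0.07) and Sucla2 (0.63, SE 0.09), subunits of succinyl-CoA synthetase, which makes the succinate that Sdha oxidises, with Dld (0.68), Dlat (0.34), Idh3g (0.28) and Fh1 (0.18). Of 12 electron carriers and inner membrane exchangers, 4 rose and 1 fell, with Ckmt1, the mitochondrial creatine kinase, at 0.80 (SE 0.10), cytochrome c (Cycs) at 0.28, and Gpd2, of the glycerol phosphate shuttle, at -0.44. Of 7 tested assembly factors and regulators outside the family, 3 rose (Cox17, a copper chaperone of complex IV, at 0.73, Lrpprc at 0.40 and Surf1 at 0.23) and 1 fell (Cox18 at -0.42), and Polg, Ppargc1a and Tfam lay under the minimum. Of 25 genes of the mitochondrial ribosome and import machinery, 8 rose and 7 fell, from Mrpl39 at 0.62 to Tomm40 at -0.94. Of 6 redox defence genes, 2 rose and 1 fell, with Nnt, which makes NADPH from the proton gradient, at 1.13 (SE 0.17).

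Markers of cell types moved over the same ages, where 53.6% of all probe sets tested were called. All 8 immature neuron markers fell, with summed intensities of 11928 to 13549 at P10 and 4632 to 5941 at P28 and P32, and all 7 tested oligodendrocyte markers rose, from sums of 672 to 1070 to 7535 to 9277. Of 8 astrocyte markers 6 rose and 1 fell, of 7 microglial markers 4 rose and 1 fell, and of 8 endothelial and mural markers 5 fell and none rose. Of the 10 hippocampal neuron markers 1 rose and 2 fell, of 3 choroid plexus markers 1 rose, and of 3 red blood cell markers 1 fell. The choroid plexus sums ran from 88.2 to 2442 at P10 and from 374 to 4882 at P28 and P32, so libraries of 1 age differed widely in them, and from P10 to P15 all 3 of these markers rose (median 1.58). No tested marker of these lists was at 0. At P15 the sums spread widely, from 6368 to 11273 for immature neuron and from 3276 to 9327 for oligodendrocyte markers. The part of these markers in the members' changes was not tested, and in bulk tissue fewer cells of a type and less RNA per cell cannot be told apart.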

How the data were processed

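The deposited values were linear intensities of Affymetrix MG-U74Av2 probe sets, used as the authors left them. The arrays had been brought to 1 level, since each array's mean without the lowest and highest 2% of values lay between 150.08 and 150.09. Their software is not stated in the sources used here. They were not normalized again, log2 was taken, and any value under 1 counted as 1 (no value of a selected member was). Symbols came from the platform annotation, updated through Entrez identifiers (10817 of 10833 probe sets with 1 symbol matched RefSeq, GRCm38.p6).

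Probe sets with a mean intensity of 31 or more (7591) were tested with limma 3.58.1 in R 4.3.3 (statmod 1.5.0) over all 30 arrays, with 1 mean per genotype and age, an intensity trend in the variance and two-sided p-values adjusted by Benjamini-Hochberg over all of them. For the genotype effect over all ages, age and genotype were the terms instead. Calls were made at an adjusted p below 0.05. The code was tested on simulated data. The members and lists were chosen with earlier results of these data known. Named in the text were the called members with the largest changes (up to 12 in maturation, 4 in a step and 5 between genotypes, or the 3 smallest p-values where none was called), the brightest and dimmest of each complex, genes with several probe sets and tissue isoforms, with other members as examples chosen after their values were seen. Arrays give no read depth, and their number limits the precision. Alternatives were a pseudocount of 32, quantile normalization, other filters, array weights, a Gapdh covariate, blocks, fewer groups and leaving out each library.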

Additional observations from a re-analysis of the deposited data

Results flagged for a closer look

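Within the groups of 4 libraries, 63 sets of values were examined for a library that stands apart, by its gap to the nearest other library as a share of the group's range, and 5 passed the 95% limit, where chance passes about 1 in 20. In heterozygotes at P10, replicate 1a was the lowest for Ndufb2 95132_r_at (share 0.966) and replicate 2b the highest for Ndufb3 (0.873). In heterozygotes at P15, replicate 1c was the highest in the mean log2 of complex II (0.885), and replicate 1d was the lowest for Sdha (0.855) and for Ndufb3 (0.921).

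The genotype difference varied with age for 4 members by limma's interaction test, Ndufa3 102097_f_at (adjusted p = 0.00112), Ndufv2 94062_at (adjusted p = 0.00822), Ndufaf4 (adjusted p = 0.0146) and Atp5e (adjusted p = 0.0437). On Ndufa3 102097_f_at the heterozygous libraries read 44.3 to 58.8 at P15 against 72.6 to 103 in wild type, 71.0 and 47.9 at P18 against 30.9 and 40.4, and 12.9 at P32 against 58.6 and 60.4. The other Ndufa3 probe set, 96915_f_at, was not called in the interaction test (adjusted p = 0.594), and its genotype difference was 0.02 at P15, -0.11 at P18 and 0.09 at P32. For Ndufaf4 they read 120 and 151 at P18 against 74.8 and 69.1, and 81.6 at P32 against 174 and 149.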

How the results depend on the processing

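The count of called members in maturation over both genotypes lay between 33 and 50 under all alternatives, and those in heterozygotes and in the genotype comparisons over all ages, at P10, P15 and P28 also stayed within the limit of 1.5 times. Libraries of the 2 genotypes with the same title code did not deviate together (correlations -0.166 to 0.14 over 7 pairs). The P28 pairs had the same value (0.0175), as groups of 2 libraries must, and P18 and P20 held no such pair. These correlations therefore cannot show whether the codes mark a batch. With the replicate block, called members numbered 23 for maturation in wild type, 3 for P10 to P15, 1 for P15 to P18, 1 for P20 to P28, 1 for genotype at P18 and 2 for genotype by age. In that fit the P10 to P15 change turned to 0.0044 for Atp5mpl and to 0.046 for Atp5o, both uncalled. Array weights gave 1 for the difference in maturation, 0 for P15 to P18, 1 for genotype at P18 and 1 at P20. The Gapdh covariate gave 1 for the difference in maturation, 2 for P15 to P18, 2 for P20 to P28, 2 for genotype at P18 and 1 for genotype by age. The title number as a block gave 1 for P15 to P18 and 4 for P20 to P28. Fitting only the groups compared gave 0 for P15 to P18, 0 for P28 to P32, 0 for genotype at P18 and 2 at P32. The pseudocount of 32 gave 0 for P28 to P32 and for genotype at P32, and no filter gave 5 for P20 to P28. Without both heterozygous P18 libraries, an alternative chosen after seeing the data, the counts were 1 for the difference in maturation, 1 for P15 to P18, 3 for P18 to P20, 1 for genotype at P20 and 1 for genotype by age. Leaving out each library in turn gave 0 to 1 for the difference in maturation, 0 to 22 for P15 to P18, 0 to 7 for P18 to P20, 1 to 11 for P20 to P28, 0 to 1 for P28 to P32, 3 to 32 for genotype at P18, 0 to 1 at P20 and 2 to 25 for genotype by age. For Ndufa3 102097_f_at in maturation, leaving out each library gave -0.67 (without wild-type P10 replicate 2a) to 0.034 (without the heterozygous P32 library), and without that last library genotype at P32 could not be tested. Shares of all probe sets called under the alternatives are not given, so these counts, here and above, are not read as particular to the members. The causes were not tested. The groups of 1 or 2 libraries and the dim probe sets limit what these arrays resolve.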
